A study of Homo sapiens with 12 samples.

Results

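Aminoacyl-tRNA synthetase genes were followed in RNA from HEK293T cells, a line of embryonic kidney origin, and in the RNA recovered when a piece of the protein TNIP2 was purified from them. The members were 37 symbols, 21 for cytosolic and 16 for mitochondrial enzymes, taken by name from the 25369 genes of the deposited tables. All 37 were present and all passed the filter on low values, a normalized count of at least 10 in at least 3 libraries, which left 14627 genes for testing. The cells had been transfected either with a plasmid that joins residues 196 to 346 of TNIP2 to the Halo tag or with one for the tag by itself. Total RNA was taken from 90 µl of material purified through the tag (Pulldown) or from 100 µl of the extract it came from (Input), and ribosomal RNA was removed before sequencing. The 4 groups were therefore TNIP2 Pulldown, TNIP2 Input, Control Pulldown and Control Input, with 3 libraries each. TNIP2 is an adaptor of NF-kB signalling that binds ubiquitin chains, and the construct held only a fragment of it. The labels name the line HEK293T and the growth conditions HEK293. Whether the replicates of a group came from different cultures is not stated; the p-values below therefore reflect only library-to-library spread, and that spread may be technical.

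Each synthetase joins 1 amino acid to the tRNAs that carry it, and the charged tRNAs feed the ribosome. Mitochondria have their own tRNAs, and most of their synthetases are made from separate nuclear genes and imported, while GARS and KARS each supply both compartments. In animal cells several cytosolic enzymes sit together in the multi-synthetase complex, held by scaffold proteins. The enzymes fall into class I and class II by the fold of their catalytic domain. Many cytosolic synthetase genes are known to be switched on together when amino acids run short, through the transcription factor ATF4.

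Total reads, recovered from the steps of the FPKM values, were 10313301 to 29531453 in TNIP2 Pulldown, 8898377 to 16762154 in TNIP2 Input, 3591188 to 6405014 in Control Pulldown and 13795587 to 20794374 in Control Input. The lowest count of any member in any library was 74 reads, in Control Pulldown replicate 3. The part of counting error in the spread of the lowest members was not tested. TNIP2 itself, part of whose sequence is on the plasmid, had 51905, 69806 and 193013 normalized counts in TNIP2 Pulldown, 16750, 13318 and 46568 in TNIP2 Input, 1472, 309 and 391 in Control Pulldown and 278, 304 and 272 in Control Input. All 6 libraries labelled with the fragment lay above the 6 with the tag alone. Of 8 markers fixed for the line, VIM had 3384 or more normalized counts in every library, while PAX2 had 2 to 22 and LHX1 14 to 113. Their sum was 11568 to 12876 in TNIP2 Pulldown, 7504 to 8220 in TNIP2 Input, 7421 to 8223 in Control Pulldown and 8032 to 8370 in Control Input. The 11 markers of blood, fibroblasts, endothelium and other organs summed to 143 to 164, 96 to 129, 48 to 135 and 131 to 146 in the same groups, and CD3E, HBB and INS were listed at 0 in all 12 libraries.

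Levels were first compared per length, on the deposited FPKM scale. In Control Input the highest members were IARS (isoleucine, 155 ± 15.8 FPKM), TARS (threonine, 136 ± 16.8), GARS (glycine, 107 ± 5.26) and YARS (tyrosine, 103 ± 13.8) (SD, n = 3 each). The SD ranges of IARS and TARS overlapped, as did those of GARS and YARS, while TARS and GARS did not overlap. IARS2 was the highest mitochondrial enzyme at 82.2 ± 10.4 FPKM, followed by RARS2 at 26.9 ± 1.58 and NARS2 at 26.0 ± 2.02, which did not differ beyond their spread. The lowest members were PARS2 at 8.83 ± 0.44, VARS at 3.90 ± 0.41 and VARS2 at 3.02 ± 0.36 FPKM. The 2 valine genes cannot be placed in this order, because they had 303 (VARS) and 255 (VARS2) normalized counts per FPKM, against 20.8 to 57.1 for the other 35 members. In TNIP2 Pulldown SARS and IARS stood at the top with overlapping SD ranges: SARS had 268 ± 16.2 FPKM and IARS 214 ± 69.9, whereas SARS had 80.2 ± 19.5 FPKM and IARS 135 ± 20.1 in TNIP2 Input. At the low end of that group, apart from VARS2, stood WARS2 at 4.25 ± 0.63 and SARS2 at 4.54 ± 1.73 FPKM, next to VARS at 4.56 ± 2.46.

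**Figure D1:**
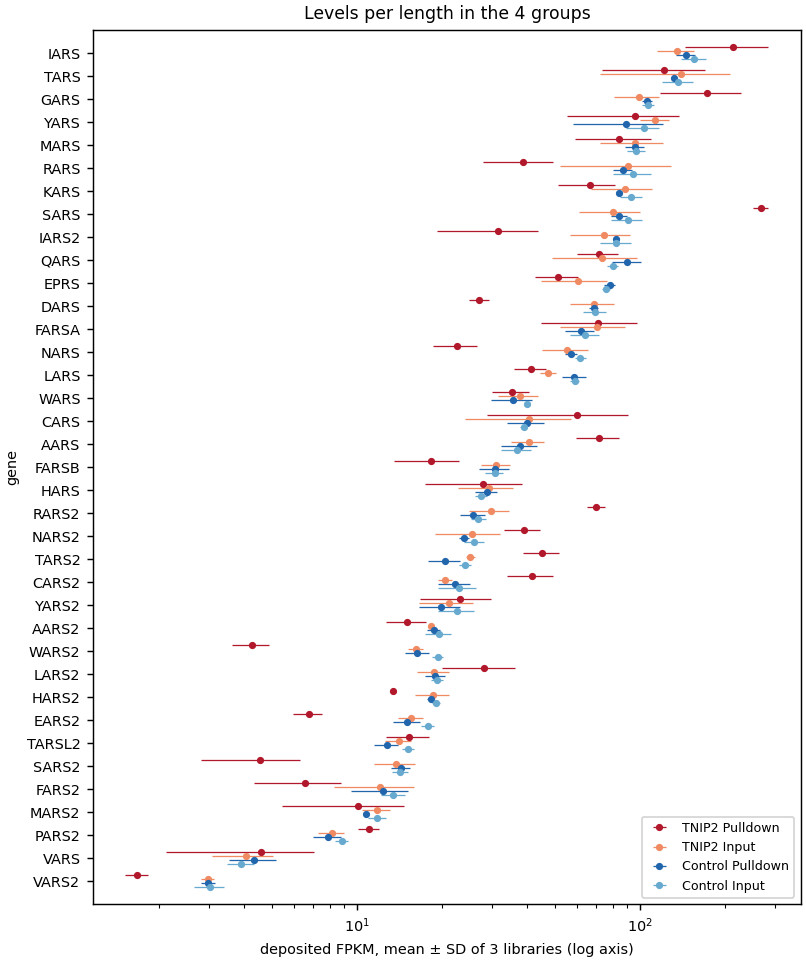
Deposited FPKM of the 37 synthetase genes on a log axis, 1 row per gene ordered by Control Input, with the mean of 3 libraries (points) and the SD (bars) for each of the 4 groups. For most genes the 3 groups other than TNIP2 Pulldown lie close together, and TNIP2 Pulldown stands to the right for SARS (268 FPKM) and to the left for WARS2 (4.25 FPKM).

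TNIP2 Pulldown against TNIP2 Input asked which synthetase mRNAs came through with the fragment relative to its own extract. In limma at an adjusted p under 0.05, 10 of the 37 members were higher in TNIP2 Pulldown, 11 were lower and 16 were not called. That is 56.8% of members called, against 58.1% of all genes tested (29.8% higher and 28.3% lower), so the members' share was near the background. Their median log2 fold change was -0.17, against 0.01 over all genes. This median depended on single libraries: it was -0.34 without TNIP2 Pulldown replicate 3, -0.053 without TNIP2 Pulldown replicate 2 and -0.0057 without TNIP2 Input replicate 3. The changes spanned SARS, at 1.76 (SE 0.17), to WARS2, at -1.92 (SE 0.15). All 3 TNIP2 Pulldown libraries lay above all 3 TNIP2 Input libraries for 8 members, against 29.4% of all genes, and below them for 11 members, against 28.1%. Centring each library on 77 cytosolic ribosomal protein genes moved the median of all genes to -0.48 and the share of higher calls among all calls to 28% in place of 51.3%. Of the members, 3 were then higher and 15 lower. Under quantile normalization the median was -0.44 in members and -0.02 in all genes.

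**Figure D2:**
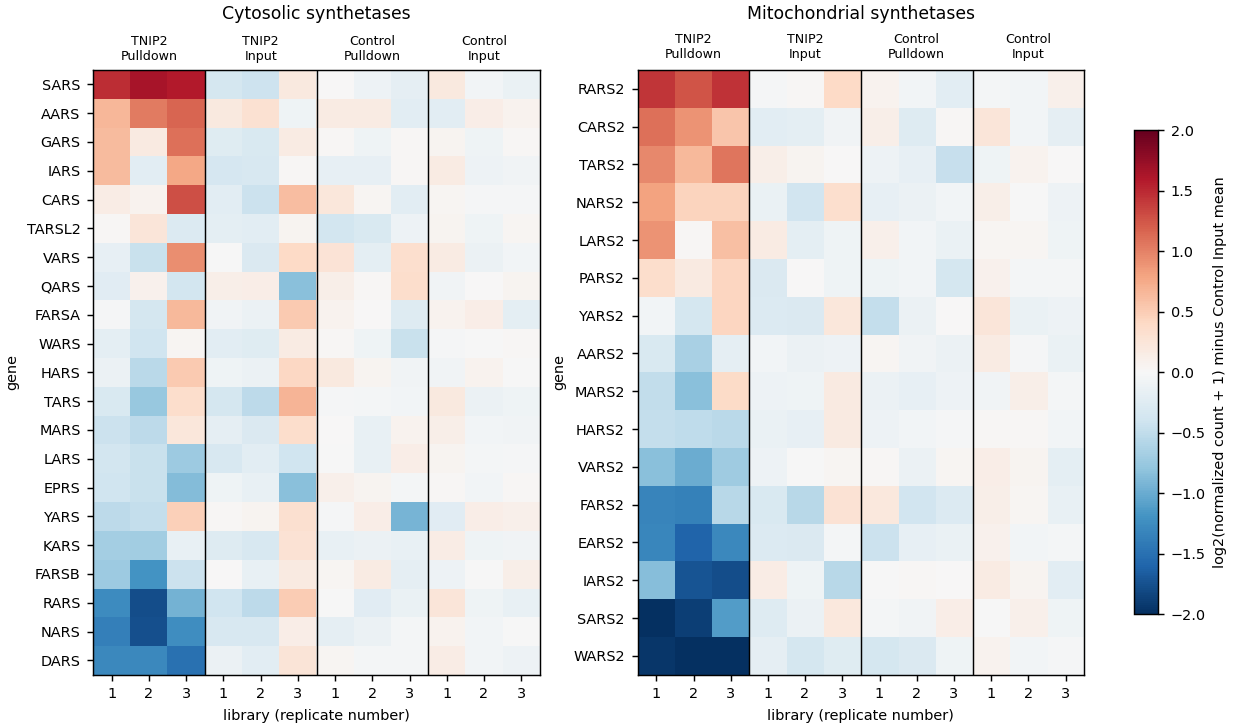
Log2(normalized count + 1) of each member in each of the 12 libraries, minus the gene's mean over Control Input (colour, clipped at 2 either way), for 21 cytosolic (left) and 16 mitochondrial (right) synthetases, ordered by the fold change of TNIP2 Pulldown over TNIP2 Input. Strong colours stand in the 3 TNIP2 Pulldown columns in both directions, and the third TNIP2 Input column is red for many cytosolic genes and blue for QARS and EPRS.

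Among cytosolic enzymes, the mRNAs of SARS, AARS, GARS and IARS rose in TNIP2 Pulldown, and those of DARS, NARS, RARS and FARSB fell. SARS, which charges serine tRNAs, had 13931, 15731 and 14940 normalized counts in TNIP2 Pulldown, against 3906, 3760 and 5703 in TNIP2 Input. Control Pulldown held 5003, 4635 and 4397 and Control Input 5718, 4781 and 4551 normalized counts of SARS. Every TNIP2 Pulldown library lay more than 2-fold above each of the other 9, and the fitted fold was 3.39 (log2 fold change 1.76, SE 0.17, adjusted p = 7.1e-07). Same-numbered TNIP2 Pulldown and Input libraries gave SARS ratios of 3.57, 4.18 and 2.62, and the tag alone gave 0.875, 0.969 and 0.966. AARS, the alanine enzyme, had 2207, 2837 and 3123 normalized counts in TNIP2 Pulldown, against 1597, 1713 and 1311 in TNIP2 Input, 1561, 1553 and 1195 in Control Pulldown and 1203, 1516 and 1464 in Control Input. GARS had 5171, 3799 and 7176 in TNIP2 Pulldown, against 2834, 2697 and 3737 in TNIP2 Input, 3399, 3142 and 3387 in Control Pulldown and 3483, 3162 and 3385 in Control Input. For both genes the groups did not overlap, but the lowest TNIP2 Pulldown library of GARS was only just above the highest TNIP2 Input library. Log2 fold changes were 0.82 for AARS (SE 0.18, adjusted p = 0.0011) and 0.77 for GARS (SE 0.20, adjusted p = 0.0041). Neither call held under quantile normalization (AARS 0.32, adjusted p = 0.17; GARS 0.15, adjusted p = 0.56) or under ribosomal protein centring (AARS 0.33, adjusted p = 0.27; GARS 0.28, adjusted p = 0.44). IARS was called at 0.61 (SE 0.22, adjusted p = 0.025) although its TNIP2 Pulldown libraries (12925, 7191 and 14231) overlapped TNIP2 Input (6583, 6639 and 8477), and the call ended in 8 of 24 alternatives, with a turned sign in 1 of them.

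DARS, the aspartate enzyme, had 751, 747 and 646 normalized counts in TNIP2 Pulldown, against 1680, 1576 and 2176 in TNIP2 Input, 1887, 1770 and 1780 in Control Pulldown and 2025, 1761 and 1710 in Control Input. NARS, which charges asparagine tRNAs, had 774, 591 and 844 in TNIP2 Pulldown, against 1605, 1610 and 2190 in TNIP2 Input, 1776, 1839 and 1957 in Control Pulldown and 2103, 1921 and 1987 in Control Input. For both genes all TNIP2 Pulldown libraries were below the other 9. Log2 fold changes were -1.33 for DARS (SE 0.15, adjusted p = 3.6e-06) and -1.29 for NARS (SE 0.17, adjusted p = 1.1e-05). RARS (arginine) fell as well, at -1.19 (SE 0.25, adjusted p = 9.4e-04). FARSB, the beta subunit of the cytosolic phenylalanine enzyme, had -0.80 (SE 0.19, adjusted p = 0.0020), while its partner subunit FARSA was not called at -0.02 (SE 0.23, adjusted p = 0.95).

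The other 13 cytosolic members were not called, with log2 fold changes from -0.41 (KARS) to 0.51 (CARS). CARS, the cysteine enzyme, and KARS, the lysine enzyme, passed once same-numbered TNIP2 Pulldown and Input libraries were treated as pairs (CARS 0.51, adjusted p = 0.0034; KARS -0.41, adjusted p = 0.0082), a fit that called 65.7% of all genes. CARS had the largest standard error of all members (0.30). It had 1382, 1308 and 3062 normalized counts in TNIP2 Pulldown, against 1074, 929 and 1902 in TNIP2 Input, so replicate 3 was high in both fractions. VARS, QARS, WARS, HARS, TARS and MARS had log2 fold changes between -0.20 and 0.07 with standard errors of 0.17 to 0.29, a spread within which changes of that size could not be told from 0.

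Mitochondrial enzymes had more members called, 6 higher and 7 lower of 16, or 81.2%, against 38.1% of the 21 cytosolic members (4 higher, 4 lower) and 58.1% of all genes. The median size of the log2 fold change was 0.83 in mitochondrial members and 0.31 in cytosolic members, and the median standard error 0.17 and 0.20. Without both TNIP2 libraries numbered 3, an alternative chosen after seeing the data, 87.5% of mitochondrial and 57.1% of cytosolic members were called, against 64.0% of all genes. Under quantile normalization the shares were 81.2% and 52.4%, against 57.1% of all genes. Ribosomal protein centring gave 62.5% and 38.1%, against 57.7% of all genes, and a fit of only the groups compared 62.5% and 33.3%, against 50.5%. The difference between the compartments was not tested.

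RARS2, the mitochondrial arginine enzyme, had 1504, 1335 and 1531 normalized counts in TNIP2 Pulldown, against 551, 568 and 734 in TNIP2 Input, 590, 537 and 482 in Control Pulldown and 542, 539 and 598 in Control Input. CARS2 (cysteine) had 1033, 897 and 711 in TNIP2 Pulldown, against 418, 420 and 461 in TNIP2 Input, 521, 404 and 487 in Control Pulldown and 569, 462 and 425 in Control Input. TARS2 (threonine) had 1483, 1203 and 1610 in TNIP2 Pulldown, against 827, 797 and 768 in TNIP2 Input, 710, 683 and 556 in Control Pulldown and 724, 800 and 772 in Control Input. For each of the 3 genes TNIP2 Pulldown lay above all other libraries. Log2 fold changes were 1.25 for RARS2 (SE 0.15, adjusted p = 7.4e-06), 1.01 for CARS2 (SE 0.18, adjusted p = 1.8e-04) and 0.83 for TARS2 (SE 0.15, adjusted p = 2.7e-04). Ribosomal protein centring ended the call of TARS2 (0.35, adjusted p = 0.21). NARS2 (asparagine, 0.63), LARS2 (leucine, 0.54) and PARS2 (proline, 0.44) were also called higher. The libraries of LARS2 overlapped between the groups, its call ended in 8 of 24 alternatives, that of PARS2 in 5 with a turned sign in 1, and that of NARS2 in 1.

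Tryptophan's mitochondrial enzyme, WARS2, had the lowest fold change of all members. It had 160, 129 and 123 normalized counts in TNIP2 Pulldown, against 549, 487 and 525 in TNIP2 Input, 487, 508 and 586 in Control Pulldown and 653, 600 and 611 in Control Input. SARS2 (serine) had 79, 93 and 158 in TNIP2 Pulldown, against 289, 316 and 397 in TNIP2 Input, 335, 328 and 376 in Control Pulldown and 342, 368 and 325 in Control Input. Both genes were below every other library in TNIP2 Pulldown, with fitted log2 fold changes of -1.92 for WARS2 (SE 0.15, adjusted p = 1.3e-07) and -1.65 for SARS2 (SE 0.22, adjusted p = 1.9e-05). IARS2 (isoleucine) had 1838, 996 and 966 normalized counts in TNIP2 Pulldown, against 3677, 3104 and 2248 in TNIP2 Input, 3282, 3373 and 3319 in Control Pulldown and 3687, 3412 and 2864 in Control Input. EARS2 (glutamate) had 322, 263 and 327 in TNIP2 Pulldown, against 664, 657 and 781 in TNIP2 Input, 593, 713 and 727 in Control Pulldown and 850, 768 and 782 in Control Input. Again no TNIP2 Pulldown library reached any of the other 9. Log2 fold changes were -1.29 for IARS2 (SE 0.23, adjusted p = 2.5e-04) and -1.20 for EARS2 (SE 0.15, adjusted p = 9.6e-06). FARS2 (phenylalanine), VARS2 (valine) and HARS2 (histidine) were called lower at -0.88, -0.83 and -0.46. Of the 3 mitochondrial members not called, AARS2 had its TNIP2 Pulldown libraries (853, 672 and 933) below those of TNIP2 Input (1015, 975 and 985), at -0.29 (SE 0.15, adjusted p = 0.11), and MARS2 and YARS2 overlapped.

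TNIP2 Pulldown against Control Pulldown compared purified material of both constructs. It shares the TNIP2 Pulldown libraries with the comparison above, so the values are given side by side and not as a second observation. Here 9 members were higher and 13 lower, 59.5% of members, against 59.4% of all genes (30.6% higher and 28.7% lower), with a median of -0.19 in members and 0.03 in all genes. The groups did not overlap for 8 higher members, against 31.5% of all genes, and for 14 lower members, against 29.5%. SARS had 1.67 here and 1.76 over TNIP2 Input, RARS2 1.44 and 1.25, TARS2 1.14 and 0.83, and AARS 0.92 and 0.82. WARS2 had -1.94 and -1.92, SARS2 -1.71 and -1.65, IARS2 -1.46 and -1.29, and NARS -1.35 and -1.29. The list of called members differed in 3 genes. IARS was not called here (0.50, SE 0.22, adjusted p = 0.058), and EPRS and LARS were called lower here but not over TNIP2 Input. EPRS, the fused glutamate and proline enzyme, had -0.62 (SE 0.19, adjusted p = 0.012) and LARS -0.51 (SE 0.14, adjusted p = 0.0062) over Control Pulldown, against -0.21 (SE 0.19, adjusted p = 0.36) and -0.21 (SE 0.14, adjusted p = 0.22) over TNIP2 Input. Ribosomal protein centring moved the median of all genes to -0.33 and the share of higher calls to 34.4% in place of 51.6%, with 4 members higher and 16 lower. Without TNIP2 Pulldown replicate 2 the members' median was 0.07, so its sign rests on that library, and it was -0.10 without replicate 1 and -0.40 without replicate 3.

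**Figure D3:**
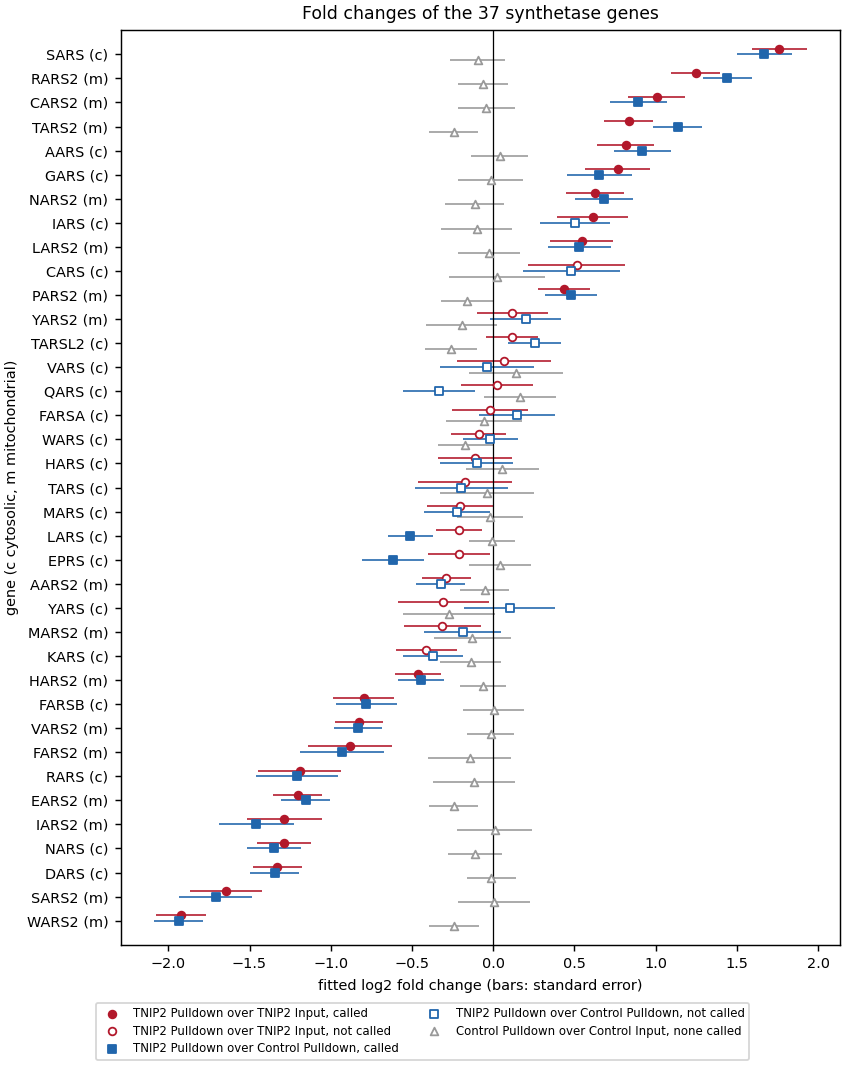
Fitted log2 fold change and standard error (bars) of each of the 37 members in 3 comparisons, ordered by TNIP2 Pulldown over TNIP2 Input, with filled symbols for an adjusted p under 0.05. Red and blue symbols, which share the TNIP2 Pulldown libraries, run from 1.76 and 1.67 (SARS) down to -1.92 and -1.94 (WARS2), while the grey triangles of Control Pulldown over Control Input stay between -0.27 and 0.16.

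The difference of enrichments subtracts the Pulldown-over-Input change with the tag alone from that with the fragment, and tests it as an interaction term. It called 8 members higher and 9 lower, 45.9% of members, against 42.8% of all genes (22.6% higher and 20.2% lower). The medians were -0.14 in members and 0.02 in all genes. The highest were SARS at 1.86 (SE 0.24, adjusted p = 3.5e-05) and RARS2 at 1.31 (SE 0.22, adjusted p = 2.6e-04). WARS2 at -1.68 (SE 0.22, adjusted p = 3.5e-05) and SARS2 at -1.65 (SE 0.32, adjusted p = 8.0e-04) were the lowest. Of the 4, RARS2 lost its call under ribosomal protein centring (0.70, adjusted p = 0.093), which moved the median of all genes to -0.59 and left 1 member higher and 13 lower. Of all 14627 genes, 1414 were higher and 4994 lower in that fit. With 1 library left out, the number of higher members was as low as 4, and that of all genes as low as 2857. Pairing same-numbered libraries within each construct gave 11 higher and 10 lower members, with CARS (adjusted p = 0.037), FARS2 (0.011), IARS (0.023) and LARS2 (0.023) called in addition; 53% of all genes were called in that fit. Members' medians turned to 0.08 without TNIP2 Pulldown replicate 2 and to 0.01 without TNIP2 Input replicate 3, and were -0.34 without TNIP2 Pulldown replicate 3.

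For most amino acids the cytosolic and mitochondrial enzymes come from separate genes, which gave 17 pairs here (EPRS and FARS2 each stand in 2 of them). In TNIP2 Pulldown over TNIP2 Input both genes were called in opposite directions in 4 pairs, in the same direction in 1 pair, and 1 gene was called in 10 pairs, of which 9 were the mitochondrial one. The 4 opposite pairs were serine, with SARS at 1.76 and SARS2 at -1.65, arginine, with RARS at -1.19 and RARS2 at 1.25, asparagine, with NARS at -1.29 and NARS2 at 0.63, and isoleucine, with IARS at 0.61 and IARS2 at -1.29. The cytosolic gene was the higher one for serine and isoleucine and the mitochondrial gene for arginine and asparagine. Both phenylalanine genes FARSB (-0.80) and FARS2 (-0.88) were lower, and for methionine and tyrosine neither gene was called. These counts stand against 58.1% of all genes called, and no test was made over pairs. The isoleucine pair depends on the less stable call of IARS, which ended in 8 of 24 alternatives. The asparagine pair depends on the call of NARS2, which ended in 1 of 24.

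**Figure D4:**
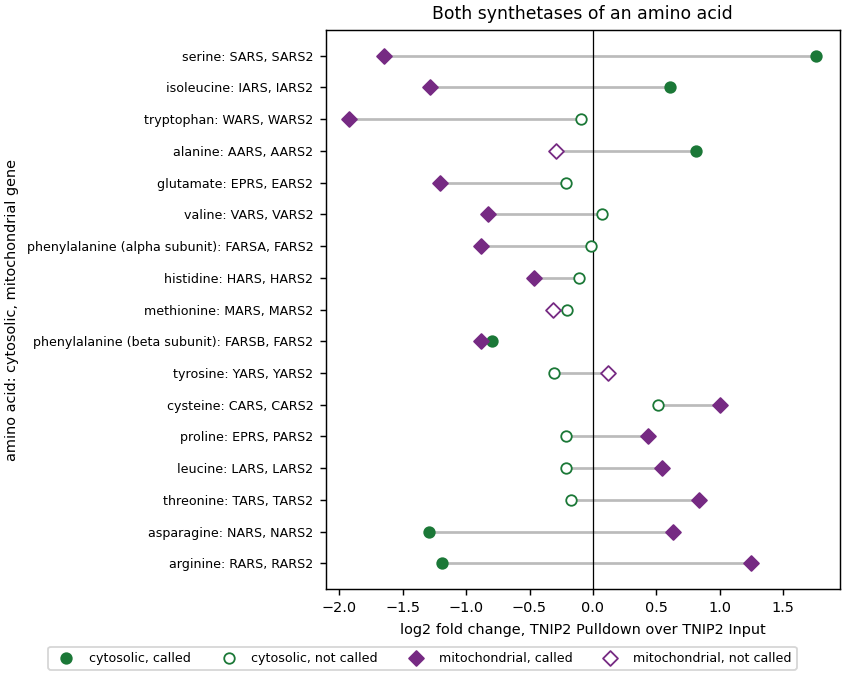
Log2 fold change of TNIP2 Pulldown over TNIP2 Input for the cytosolic (circle) and mitochondrial (diamond) synthetase of each of 17 pairs, joined by a line, with filled symbols for an adjusted p under 0.05. The longest line joins SARS (1.76) and SARS2 (-1.65), and lines for arginine and asparagine run the other way, with the mitochondrial gene to the right.

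HARS and HARS2 are neighbours on opposite strands that start back to back. In RefSeq (GRCh38.p14) 84 bases lie between their start sites, chr5:140691370 for HARS on the minus strand and chr5:140691455 for HARS2 on the plus strand. The stretch between them, chr5:140691371-140691454, is shown on the plus strand because all of it lies upstream of both genes, with no letters marked:
HARS and HARS2: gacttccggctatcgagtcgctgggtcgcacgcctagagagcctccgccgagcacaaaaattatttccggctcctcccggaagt
Its GC content was 59.5%. HARS2 had 407, 399 and 387 normalized counts in TNIP2 Pulldown, against 515, 502 and 640 in TNIP2 Input (log2 fold change -0.46, SE 0.14, adjusted p = 0.011), a call that ended with only the groups compared in the fit (adjusted p = 0.076). HARS had 663, 498 and 1032 in TNIP2 Pulldown, against 677, 662 and 961 in TNIP2 Input (-0.11, SE 0.23, adjusted p = 0.69). HARS2 was lower in all 3 same-numbered pairs, and HARS in 2 of 3. The difference between the 2 genes was not tested.

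The 8 enzymes of the multi-synthetase complex did not move as 1 group. Over TNIP2 Input, IARS was called higher, DARS and RARS lower, and EPRS, KARS, LARS, MARS and QARS were not called, with a median of -0.21. That is 37.5% of the 8, against 58.1% of all genes. Over Control Pulldown 0 of the 8 were higher and 4 were lower (DARS, RARS, EPRS and LARS), with a median of -0.44, against 30.6% of all genes higher and 28.7% lower. Class I enzymes had 4 members higher and 5 lower of 18 over TNIP2 Input, and class II enzymes 6 higher and 6 lower of 18 (EPRS has domains of both classes and was counted in neither). These shares were 50% and 66.7%, against 58.1% of all genes.

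Other genes of tRNA biology were described from 3 lists that hold no synthetase. Of 55 tested, 17 were higher and 20 lower in TNIP2 Pulldown over TNIP2 Input, or 67.3%, against 58.1% of all genes (29.8% higher and 28.3% lower). Partners of charging, such as complex scaffolds, elongation factors and editing enzymes, had 5 higher and 6 lower of 16. Maturation and export genes had 5 higher and 5 lower of 13, and modification enzymes 7 higher and 9 lower of 26. The highest were EEF1E1, a scaffold protein of the multi-synthetase complex, at 1.68 (SE 0.22), TRMT10A, a tRNA methyltransferase, at 1.63 (SE 0.21), and DTD1, which removes D-amino acids from tRNA, at 1.58 (SE 0.15). EEF1E1 had 1801, 2023 and 1058 normalized counts in TNIP2 Pulldown, against 432, 428 and 629 in TNIP2 Input. The lowest were QTRT1, the queuosine transglycosylase subunit, at -2.43 (SE 0.25), TSEN34, a subunit of the tRNA splicing endonuclease, at -2.01 (SE 0.16), and GATC, a subunit of the mitochondrial amidotransferase that makes glutaminyl-tRNA, at -1.95 (SE 0.17). All 6 had adjusted p-values of 1.4e-05 or less.

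Control Pulldown against Control Input asked what the tag and resin carried without the fragment. In limma 0 members were higher and 0 lower, against 0.137% of all genes, and unadjusted p-values under 0.05 were found for 0 members and 342 genes. With voom, run on the recovered reads, 0 members were called as well. Log2 fold changes ran from -0.27 (YARS) to 0.16 (QARS), with a median of -0.06 in members and -0.01 in all genes. The smallest p-values belonged to EARS2, whose values are given above (-0.24, SE 0.15), and to TARSL2, the second cytosolic threonine enzyme. TARSL2 had 441, 458 and 530 normalized counts in Control Pulldown, against 589, 537 and 582 in Control Input (-0.26, SE 0.16, adjusted p = 1.00). Neither passed, although the groups did not overlap in either gene. Such separation was seen in 7 members, all lower in Control Pulldown (EARS2, KARS, MARS2, PARS2, TARS2, TARSL2 and WARS2), against 7.15% of all genes, and in 0 higher members, against 5.83%. The Control Pulldown libraries were the shallowest of the series.

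Extracts of the 2 constructs were compared directly as TNIP2 Input against Control Input. In limma 0 members were higher and 0 lower, against 0.00684% of all genes, and voom called 0. An unadjusted p under 0.05 was found for 1 member, LARS, and for 104 genes. In such bulk extracts fewer expressing cells and less RNA per cell cannot be told apart. LARS, the leucine enzyme, had 2595, 2789 and 2464 normalized counts in TNIP2 Input, against 3373, 3137 and 3196 in Control Input (-0.31, SE 0.14). EPRS had 4044, 3888 and 2412 in TNIP2 Input, against 4383, 4160 and 4404 in Control Input (-0.36, SE 0.19). Both had their TNIP2 Input libraries below all Control Input libraries, as did WARS2, and adjusted p-values of 1.00. These 3 are the members without overlap, against 5.32% of all genes lower and 3.62% higher, where 0 members stood. EPRS and LARS are the same 2 members that were called lower against Control Pulldown but not against TNIP2 Input in the reported fit. For EPRS the lowest TNIP2 Input library was replicate 3. In limma without that library EPRS was called lower over TNIP2 Input too (adjusted p = 0.024). Both genes were also called lower there under quantile normalization and under ribosomal protein centring. Their TNIP2 Pulldown values were 3284, 3154 and 2358 for EPRS and 2504, 2371 and 1946 for LARS. Members' log2 fold changes in the Inputs ran from -0.36 to 0.14, with a median of -0.09 in members and -0.01 in all genes. The members' median was -0.021 without TNIP2 Input replicate 1, -0.011 without replicate 2, -0.19 without replicate 3 and -0.028 without Control Input replicate 1.

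TNIP2 Input replicate 3 was high for many synthetase genes, though it was not the only Input library to deviate from the shares over all genes. It was the highest of the 6 Input libraries for 20 of 37 members, or 54.1%, against 32.4% of all genes, and the lowest for 4 members, or 10.8%, against 32.7%. The other 5 Input libraries were highest for 0 to 12 members, with the 12 in Control Input replicate 1, against 16.6% of all genes in that library. TNIP2 Input replicate 2 was the lowest for 20 members, against 22.3% of all genes. Cytosolic members were highest in TNIP2 Input replicate 3 in 14 of 21 cases and mitochondrial members in 6 of 16. Relative to TNIP2 Input replicates 1 and 2, its log2 shift had a median of 0.36 over members and -0.01 over all genes. TNIP2 Pulldown replicate 3, which has the same replicate number, was the highest of its group for 25 members, or 67.6%, against 36.4% of all genes. Its median shift was 0.32 over members and -0.07 over all genes. Across the 37 members the 2 shifts had a Pearson correlation of 0.63, against 0.50 over all genes; members are not independent, and both shifts are of the same pair of libraries. With 8898377 and 10313301 reads, the Input and Pulldown libraries numbered 3 were the shallowest of their groups, and the part of depth in these shifts was not tested. They also had the most TNIP2 counts of their groups, 46568 in Input and 193013 in Pulldown, and the part of this was not tested either. The largest Input shifts were in TARS, at 1.11 (0.89 in Pulldown), RARS, at 0.97 (0.57), and CARS, at 0.93 (1.19). QARS, at -0.96 (-0.31), EPRS, at -0.72 (-0.45), and IARS2, at -0.59 (-0.49), went the other way. TARS had 3942, 2903 and 6261 normalized counts in TNIP2 Pulldown, against 3851, 3413 and 7842 in TNIP2 Input, and QARS 2198, 2729 and 1981, against 2788, 2806 and 1441. The part of these libraries in the group results is given by the values without them: 11 members were higher and 15 lower over TNIP2 Input, and 10 higher and 20 lower over Control Pulldown. All genes gained calls too in that fit, to 64% over TNIP2 Input and 68% over Control Pulldown.

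**Figure D5:**
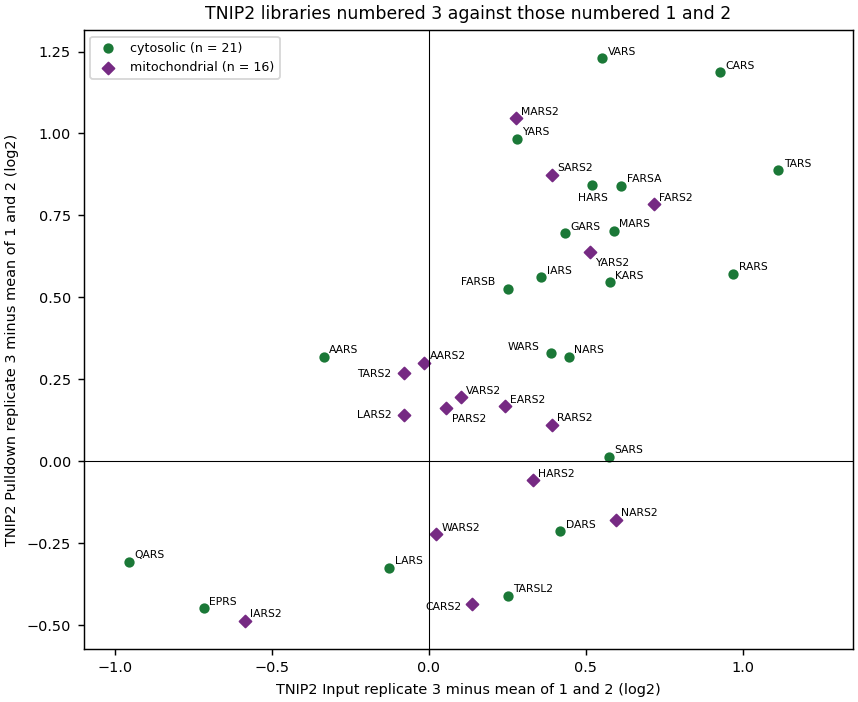
Shift of the libraries numbered 3 from the mean of those numbered 1 and 2, as a log2 difference, in TNIP2 Input (x axis) and TNIP2 Pulldown (y axis), 1 point per member (circles cytosolic, diamonds mitochondrial). Most members lie at the upper right, with TARS at 1.11 and 0.89, and QARS, EPRS, LARS and IARS2 lie in the lower left.

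Start-site windows were searched for TGATGNAA, the core of the element that binds C/EBP and ATF dimers, ATF4 among them. The search was chosen after the shifts above were seen, and any part of the motif in them was not tested. The windows run from 250 bases before to 50 after a RefSeq start site (GRCh38.p14), were read on both strands, and no other motif was searched. All 37 members matched a RefSeq gene, 18 by the symbol of the table and 19 by an older symbol (AARS is now AARS1, for example). A window existed for 30 members, and AARS2, DARS, LARS, TARSL2, VARS, VARS2 and YARS had none. The motif stood in at least 1 window of 8 of the 30 members, or 26.7%, against 1217 of 27305 genes, or 4.46%. These 27305 are all RefSeq genes with a window, not the 14627 genes tested. Of the 8 genes 7 are cytosolic, out of 16 cytosolic members with a window. The matches are printed 5′ to 3′ on the strand that reads the motif, with the 8 motif letters in capitals and 10 bases on either side, because they show how far the flanks differ around a shared core:
AARS: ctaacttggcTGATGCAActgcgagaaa
CARS: tcctagaatcTGATGCAAccgccgcccc
GARS: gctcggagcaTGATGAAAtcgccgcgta
IARS: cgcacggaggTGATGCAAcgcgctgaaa
MARS: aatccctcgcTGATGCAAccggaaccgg
NARS: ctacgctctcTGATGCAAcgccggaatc
TARS: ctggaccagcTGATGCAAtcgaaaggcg
YARS2: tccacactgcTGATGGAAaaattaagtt
The printed stretches are chr16:70289676-70289703 for AARS, chr11:3057408-3057435 for CARS and chr9:92293693-92293720 for IARS on the plus strand. On the minus strand they are chr7:30594835-30594862 for GARS, chr12:57488054-57488081 for MARS, chr18:57621805-57621832 for NARS, chr5:33440957-33440984 for TARS and chr12:32756077-32756104 for YARS2. In 6 of the 8 the core is TGATGCAA, and GARS and YARS2 differ from it at the free position. TNIP2 Input replicate 3 was the highest Input library for 5 of the 8 members with the motif and for 12 of the 22 with a window and no match. The median shift of TNIP2 Input replicate 3 was 0.48 with the motif and 0.30 without it. For TNIP2 Pulldown replicate 3 the median shifts were 0.67 and 0.17. Cytosolic enzymes made up 7 of the 8 members with the motif and 9 of the 22 without it. Over all cytosolic members the median shifts were 0.43 in Input and 0.55 in Pulldown, against 0.19 and 0.17 over mitochondrial members. Motif and compartment were not separated. In TNIP2 Pulldown over TNIP2 Input, 3 members with the motif were higher (AARS, GARS and IARS) and 1 lower (NARS), while 7 without it were higher and 8 lower. The difference between members with and without a match was not tested, and a match of letters is not a bound site.

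Together the 37 members made up 0.507, 0.425 and 0.695% of all normalized counts in TNIP2 Pulldown, 0.578, 0.570 and 0.685% in TNIP2 Input, 0.654, 0.632 and 0.634% in Control Pulldown and 0.652, 0.628 and 0.630% in Control Input. Of the members' sum SARS alone took 18.8, 24.5 and 17.0% in TNIP2 Pulldown, against 6.45, 6.48 and 7.75% in TNIP2 Input, 7.43, 7.15 and 6.80% in Control Pulldown and 7.93, 7.20 and 6.93% in Control Input. The SARS share was thus above that of every other library in all 3 TNIP2 Pulldown libraries, while the members' total share overlapped between the groups. Spearman's rho between the log2 fold change of TNIP2 Pulldown over TNIP2 Input and the length implied by the FPKM values was 0.03 over members (n = 37) and 0.22 over all genes, and with the Control Input level it was 0.10 over members and -0.13 over all genes. The 37 include VARS and VARS2, whose 303 and 255 normalized counts per FPKM stand apart from the other 35, so their implied lengths are in doubt.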

How the data were processed

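The members, the lists and the tests were chosen with earlier results of these data known. Normalized counts, handled as a score because the authors had scaled and rounded them, and FPKM were both deposited as tables with 1 row per gene symbol. Per the submitters' processing notes, the tools were TopHat2 2.0.14 and DESeq2 1.6.3 with build hg19; no read counter, strand setting or annotation is named there. Columns were matched to labels by letter, the TNIP2 fragment by elimination. Whole reads were recovered from the steps of the deposited FPKM values: in each library 17 to 91 low values were tried, and 100% lay within 0.1 of a whole read.

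Log2(normalized count + 1), a scale that understates changes of low genes, was fitted for 14627 genes over 12 libraries with limma 3.58.1 in R 4.3.3 (lmFit, eBayes with trend, 8 residual degrees of freedom, two-sided, Benjamini-Hochberg over all genes tested, called at an adjusted p under 0.05). Fold changes are fitted values. No set test was run. Per-library values were given for the 6 highest and 6 lowest members over TNIP2 Input, the 2 highest and 2 lowest in the difference of enrichments, and the 2 smallest p-values in each Control Input comparison; those of IARS, AARS2, CARS, EPRS, HARS, HARS2, LARS, TARS and QARS in further groups were chosen after their values were seen. Same-numbered TNIP2 Input and Pulldown libraries deviated together (r = 0.37, 0.46 and 0.50 over all genes), while Control libraries did not (0.074 to 0.077). The labels give only the replicate number and do not state that same-numbered libraries came from the same extract. The reported fit has no pairing and so ignores this shared deviation. A fit with a replicate block within each construct, Control included, was an alternative added after seeing the data. Alternatives were the pseudocount, filter, scaling, FPKM, voom on recovered reads, replicate block, groups in the fit and leaving out each library.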

Additional observations from a re-analysis of the deposited data

Results flagged for a closer look

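For 17 members the Pulldown-over-Input change differed between the fragment and the tag alone in the interaction term (limma, adjusted p under 0.05 over all genes), against 42.8% of all genes. The difference of enrichments was 1.86 for SARS, 1.31 for RARS2, 1.08 for TARS2, 1.05 for CARS2, 0.78 for GARS, 0.78 for AARS, 0.74 for NARS2 and 0.60 for PARS2 on the log2 scale. It was -1.68 for WARS2, -1.65 for SARS2, -1.32 for DARS, -1.29 for IARS2, -1.18 for NARS, -1.07 for RARS, -0.96 for EARS2, -0.81 for VARS2 and -0.80 for FARSB. The call held in every alternative run for 8 of the 17. It was lost most often for GARS, in 13 of 23 alternatives, PARS2, in 11, and NARS2, in 9.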

How the results depend on the processing

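Of the members called, 13 of 21 over TNIP2 Input, 17 of 22 over Control Pulldown and 8 of 17 in the difference of enrichments kept their call in every alternative. Of the members not called, 10 of 16, 10 of 15 and 11 of 20 in the same comparisons were called in at least 1 alternative. Under quantile normalization 6 members were higher and 18 lower over TNIP2 Input, and 5 higher in the difference. Of all 14627 genes, 4090 were then higher and 4266 lower over TNIP2 Input, and 2921 higher in the difference. Centring on ribosomal protein genes gave 3 higher over TNIP2 Input (median -0.66), 4 over Control Pulldown (-0.55) and 1 in the difference (-0.74), and medians of 0.061 in Control Pulldown over Control Input and 0.16 in TNIP2 Input over Control Input, as it moved all genes too. Of all genes, this centring called 2365 higher over TNIP2 Input, 2849 over Control Pulldown and 1414 in the difference. Leaving out 1 library accounted for all 4 alternatives that ended the difference calls of FARSB and of RARS, and gave 4 to 10 higher members in the difference, and medians of -0.12 to -0.020 in Control Pulldown over Control Input. Of all genes, 2857 to 3834 were higher in the difference with 1 library left out. Chosen after seeing the data, the fit without both TNIP2 libraries numbered 3 gave 20 lower over Control Pulldown, and the replicate block within each construct 11 higher and 12 lower over TNIP2 Input. Of all genes, 4799 were lower in the former, and 4937 higher and 4670 lower in the latter. The planned replicate block across constructs, whose numbers share nothing else (r = -0.20 to 0.15 between constructs), kept 10 higher and 11 lower over TNIP2 Input and ended the call of PARS2 in the difference (adjusted p = 0.054). Of all genes, this block called 4529 higher and 4284 lower over TNIP2 Input. Fitting only the groups compared is the reported fit for the difference. With 3 libraries a group, small changes remain below what can be called.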
